A study of Mus musculus with 8 samples.

Results

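The autophagy genes described here were 39 mouse genes that encode the machinery of macroautophagy, from its initiating kinases to the lysosomal membrane, chosen by name from the 56923 genes counted in bulk RNA sequencing of thymic epithelial cells (TECs). Of these 39, 38 reached at least 1 CPM (counts scaled to library size) in at least 3 of the 8 libraries and were tested, and *Atg9a* did not. The 8 libraries formed 4 groups of 2, labelled as biological replicates, and were compared to ask how culture changes TECs. *In vivo* TECs were sorted as EpCAM-positive cells from thymi of wild-type embryos at E16.5 and lysed at once, and all other groups were grown from cells sorted in the same way. 2D-cultured TECs were grown for 3 days on laminin-coated plates. Organoids were grown in Matrigel, a basement membrane hydrogel, and were collected at day 3 (D3) or day 7 (D7), with the ROCK inhibitor thiazovivin added at the start. All cultures were kept in the same TEC medium, which contains the growth factor FGF7. Cells of different thymic epithelial types were pooled in each library, and no group received a further treatment.

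Autophagy encloses cytoplasm in a double membrane, the autophagosome, which then fuses with a lysosome where its content is degraded. The ULK kinase complex starts the process, a class III phosphatidylinositol 3-kinase marks the growing membrane, lipid carriers expand it, and ubiquitin-like conjugation attaches ATG8 proteins that recruit cargo receptors. TECs are known for high autophagy under normal conditions, through which their own cytoplasmic proteins reach MHC class II molecules and take part in the selection of T cells.

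Counts were made from the 3′ ends of transcripts and were compared for each gene between groups, not between genes. The libraries held 5084715 to 7612532 counts and 16748 to 19943 detected genes, and 22.7% to 29.4% of counts fell on genes annotated as ribosomal RNA. All libraries held epithelial transcripts, with *Epcam* at 192 to 814 CPM and *Cdh1* at 426 to 1496 CPM. The cortical marker *Psmb11* was at 523 and 556 CPM *in vivo*, at 0.507 to 0.979 CPM in 2D-cultured TECs and D3 organoids, and at 106 and 113 CPM in D7 organoids. Group means *in vivo*, in 2D, at D3 and at D7 were 420, 959, 95.3 and 74.4 CPM for *Krt8*. In the same order they were 1747, 3377, 259 and 490 for *Krt18* and 259, 694, 243 and 69.7 for *Krt5*. For *Foxn1* they were 249, 6.69, 9.22 and 72.9, for *Prss16* 2875, 16.35, 42.8 and 384, and for *Ly75* 391, 25.4, 20.8 and 39.8. *Aire* had a mean of 7.69 CPM *in vivo* and at most 0.062 in the cultures. Transcripts of thymocytes, the T cell precursors that fill the thymus, were seen mainly *in vivo*, where 10 thymocyte markers summed to 882 and 402 CPM against 2.36 to 11.3 CPM in the 6 cultured libraries, with *Cd4* and *Cd8a* at 0 to 0.282 CPM *in vivo*. Mesenchymal markers summed to 95.2 and 67.4 CPM *in vivo*, 41.5 and 36.4 in 2D, 21.97 and 17.9 at D3 and 79.9 and 71.6 at D7. Single genes made up much of these sums. *Thy1*, listed here as mesenchymal, was at 49.8 and 21.3 CPM *in vivo* and at 0.372 and 0.989 at D7. It was higher in the *in vivo* library with the higher thymocyte sum. Whether its reads came from mesenchyme or thymocytes was not tested. *Dcn* was at 18.3 and 23.1 CPM *in vivo* and at 53.6 and 51.0 at D7. *Pdgfra* was at 0 in both *in vivo* libraries and at 0.868 and 0.198 CPM at D7. Endothelial, erythroid and myeloid lists summed to at most 12.5 CPM in any library, with *Cdh5* and *Tie1* at 0 in all. The part of these cells in the differences between *in vivo* and cultured TECs was not tested. In bulk samples, fewer cells of a type and less RNA per cell cannot be told apart.

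The 38 genes did not share 1 order of groups. The highest group mean was in 2D culture for 13 of them, at D7 for 12, *in vivo* for 10 and at D3 for 3, and the lowest was at D3 for 16 and in 2D culture for 1, *Atg10*. In 2D-cultured TECs, the cargo receptor *Sqstm1*, the lysosomal protein *Lamp1*, the ATG8 genes *Gabarapl2* and *Map1lc3a* and the scaffold *Rb1cc1* were all higher than *in vivo*, by 1.92-fold to 3.17-fold. *Lamp2* went the other way and was higher *in vivo* than in every culture, *Wipi1* was low at D3 and rose again by D7, and *Atg9b* was read almost only in 2D culture.

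Each pair of groups was tested with edgeR's quasi-likelihood test over all 14504 genes, and a gene was called at an adjusted p of at most 0.05. *In vivo* over 2D, 16 of 38 autophagy genes were called, 3 higher and 13 lower *in vivo*. Of all genes 41.6% were called, 21.7% higher and 19.9% lower. The median log2 fold change of the members was -0.305, beside 0.0572 over all genes. Between D3 organoids and 2D-cultured TECs, 1 member was higher and 13 were lower in organoids, beside 38.3% of all genes called, 19.3% higher and 19.1% lower, and medians of -0.363 for the members and 0.0251 for all genes. For D7 organoids over 2D-cultured TECs the numbers were 2 higher and 9 lower, beside 45.5% of all genes called, 24.4% higher and 21.1% lower, and medians of -0.157 and 0.1032. In this last pair the share of members called lower was thus near the background. Without normalization beyond library size 6 members were higher and 5 lower there, beside 4340 higher and 2315 lower of all 14504 genes. Without that normalization, *in vivo* over 2D gave 4 higher and 8 lower, beside 3802 and 2221 of all genes. For D3 over 2D 3872 of all genes were then higher and 1886 lower, and for D7 over D3 1339 and 1541. These all-gene counts are the background for the later counts given without normalization. The median over all genes moved from 0.0572 to 0.2385 for *in vivo* over 2D, to 0.3073 for D7 over 2D and to 0.2867 for D3 over 2D. Differences against 2D culture are thus relative to the scaling.

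The fewest members, 6, were called between *in vivo* TECs and D3 organoids, where 28.2% of all genes were called. *In vivo* over D3, 2 members were higher and 4 lower, beside 14% and 14.1% of all genes, with medians of 0.086 for the members and 0.0098 for all genes. *In vivo* over D7, 3 were higher and 11 lower, beside 34.8% of all genes, 16.8% higher and 18% lower, and medians of -0.163 and -0.0121. From D3 to D7 in organoids, 7 members rose and 5 fell, beside 20.8% of all genes, 10.9% and 9.91%, and medians of 0.345 and 0.0588. These comparisons share libraries and are not independent of each other. A test of any difference over the 4 groups called 23 of 38 members, 60.53%, beside 61.8% of all genes, so that the share of members that differed somewhere was near the background.

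**Figure D1:**
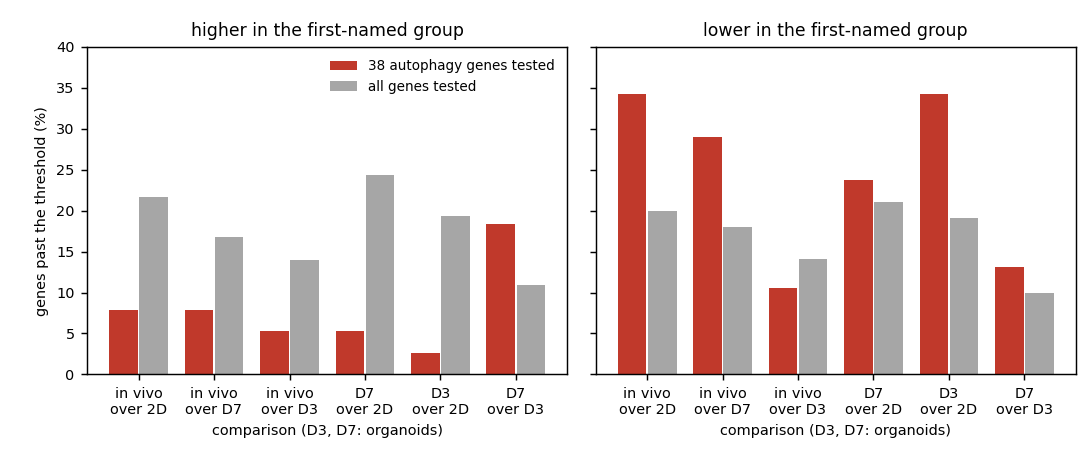
Share of genes called in each of the 6 comparisons, as percent of the 38 autophagy genes tested (red) and of all 14504 genes tested (grey), for genes higher (left) or lower (right) in the first-named group. The red bars for genes lower *in vivo* or at D3 than in 2D culture stood at 34.21%, above the grey bars at 19.9% and 19.1%.

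**Figure D2:**
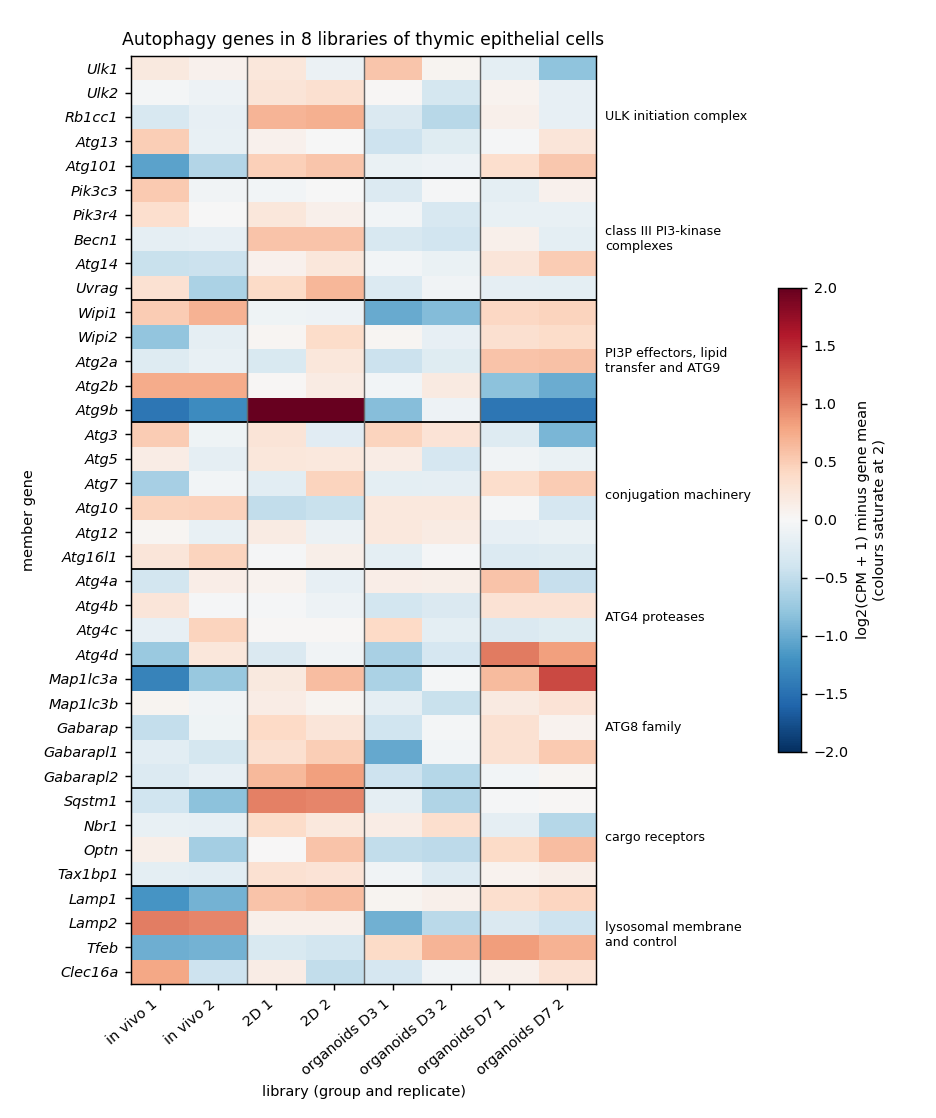
Level of each tested autophagy gene in each of the 8 libraries, as log2(CPM + 1) minus the mean of the gene over the libraries, with genes in rows by role and libraries in columns by group. The 2D columns are red for *Rb1cc1*, *Becn1*, *Gabarapl2* and *Sqstm1*, the *in vivo* columns are blue for *Lamp1* and red for *Lamp2*, and *Wipi1* is blue at D3.

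The ULK complex, which starts autophagosome formation when nutrients are short, was measured by 5 genes. *Rb1cc1*, which encodes the scaffold FIP200, was at 128 and 144 CPM *in vivo*, 259 and 265 in 2D culture, 131 and 109 at D3 and 172 and 143 at D7. Both 2D libraries were the highest, and no other group overlapped with them. Against 2D culture, *Rb1cc1* was 1.92-fold lower *in vivo* (log2 fold change -0.94 ± 0.16 SE, edgeR adjusted p = 0.000149), 2.18-fold lower at D3 (-1.13 ± 0.16, edgeR adjusted p = 2.93e-05) and 1.66-fold lower at D7 (-0.73 ± 0.16, edgeR adjusted p = 0.00131). *Atg101*, a subunit that stabilizes ATG13, was at 10.8 and 15.5 CPM *in vivo*, 33.6 and 35.6 in 2D, 21.6 and 22.1 at D3 and 30.3 and 35.2 at D7. Its *in vivo* libraries were the lowest of all, and its 2D and D7 libraries overlapped. It was 2.62-fold lower *in vivo* than in 2D (-1.39 ± 0.24, edgeR adjusted p = 0.000186) and 2.46-fold lower than at D7 (-1.30 ± 0.24, edgeR adjusted p = 0.000466). Its differences from D3 were smaller, 1.65-fold to *in vivo* (edgeR adjusted p = 0.0349) and 1.58-fold to 2D (edgeR adjusted p = 0.0329). Both were lost without either D3 library, at adjusted p of 0.0791 to 0.113, the first also without *in vivo* replicate 1 (adjusted p = 0.209) and the second without either 2D library or without normalization.

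The kinase *Ulk1* was at 41.3 and 37.9 CPM *in vivo*, 42.01 and 32.9 in 2D, 53.1 and 37.3 at D3 and 31.1 and 20.2 at D7. It was 1.74-fold lower at D7 than at D3 (-0.80 ± 0.25, edgeR adjusted p = 0.0288). This call was lost without D3 replicate 1 (adjusted p = 0.26) or D7 replicate 2 (adjusted p = 0.3). Its paralogue *Ulk2* ranged from 21.4 to 34.7 CPM and *Atg13*, the regulatory subunit, from 12 to 23.3 CPM, with no call in any pair. Exons of *Arhgap1* on the other strand cover the whole 3′ end of *Atg13*, and *Arhgap1* was at 28.7 to 50.2 CPM. The strand setting of the counting is not given in the sources used here, so reads of *Atg13* and *Arhgap1* cannot be told apart.

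The class III phosphatidylinositol 3-kinase exists as complexes that share the catalytic subunit VPS34 (*Pik3c3*), VPS15 (*Pik3r4*) and Beclin 1 (*Becn1*) and differ in ATG14, which directs the kinase to autophagosomes, or UVRAG, which directs it to endosomes. *Becn1* was at 52.4 and 53.0 CPM *in vivo*, 89.5 and 89.7 in 2D culture, 47.8 and 45.7 at D3 and 64.1 and 51.8 at D7. As for *Rb1cc1*, the 2D libraries stood above all others. *Becn1* was 1.70-fold lower *in vivo* (-0.76 ± 0.18, edgeR adjusted p = 0.00218) and 1.92-fold lower at D3 (-0.94 ± 0.18, edgeR adjusted p = 0.00046) than in 2D. At D7 it was 1.54-fold lower than in 2D (-0.62 ± 0.18, edgeR adjusted p = 0.00823). This call was lost without D7 replicate 2 (adjusted p = 0.109) or without normalization. *Cntd1*, whose exons cover the whole 3′ end of *Becn1* on the other strand, was at 0.364 to 3.23 CPM.

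*Atg14* was at 18.3 and 18.5 CPM *in vivo*, 27.1 and 29.9 in 2D, 24.5 and 22.9 at D3 and 30.3 and 36.4 at D7, lowest in both *in vivo* libraries. It was 1.81-fold lower *in vivo* than at D7 (-0.85 ± 0.22, edgeR adjusted p = 0.0067). This was lost without D7 replicate 2 (adjusted p = 0.085). Its 1.55-fold lower level *in vivo* than in 2D (edgeR adjusted p = 0.0321) was lost without any 1 of the 4 libraries compared. *Uvrag* was at 33.6 and 17.1 CPM *in vivo*, 35.3 and 43.1 in 2D, 21.97 and 25.6 at D3 and 23.6 and 23.3 at D7. It was called lower than in 2D at D7, by 1.67-fold (edgeR adjusted p = 0.0361), and at D3, by 1.64-fold (edgeR adjusted p = 0.0471). Each call was lost without any 1 of the 4 libraries compared. The catalytic core was not called in any pair: *Pik3c3* ranged from 18.8 to 33.3 CPM and *Pik3r4* from 27.7 to 44.0 CPM over the 8 libraries.

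The lipid made by this kinase is bound by WIPI proteins, while ATG2 proteins carry lipids from the endoplasmic reticulum and ATG9 proteins redistribute them in the growing membrane. *Wipi1* (chr11:109464156-109502793, minus strand, GRCm39) was at 135 and 153 CPM *in vivo*, 89.1 and 88.2 in 2D culture, 46.6 and 51.2 at D3 and 127 and 130 at D7. Each group stood apart from the others except *in vivo* and D7, where the D7 libraries lay just below the *in vivo* ones, a difference that was not called. *Wipi1* was 2.95-fold higher *in vivo* than at D3 (log2 fold change 1.56 ± 0.16 SE, edgeR adjusted p = 1.07e-06) and 1.63-fold higher than in 2D (0.70 ± 0.16, edgeR adjusted p = 0.00174). D3 organoids were 1.81-fold below 2D culture (-0.86 ± 0.16, edgeR adjusted p = 0.000464). From D3 to D7 *Wipi1* rose 2.62-fold (1.39 ± 0.16, edgeR adjusted p = 2.11e-05), to 1.45-fold above 2D culture (0.53 ± 0.16, edgeR adjusted p = 0.0111). The last call was lost without 2D replicate 1 (adjusted p = 0.0529), 2D replicate 2 (adjusted p = 0.0555) or D7 replicate 2 (adjusted p = 0.0603). Exons of *Arsg* on the other strand cover 15.2% of the 3′ end of *Wipi1* and *Arsg* was at 0.182 to 3.81 CPM.

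*Wipi2*, which recruits ATG16L1 to the membrane, had another pattern, at 38.99 and 60.1 CPM *in vivo*, 69.8 and 87.6 in 2D, 70.0 and 61.0 at D3 and 85.5 and 87.6 at D7. It was lower *in vivo* than in 2D, by 1.58-fold (edgeR adjusted p = 0.0164), and than at D7, by 1.74-fold (edgeR adjusted p = 0.00637). Both calls rested on *in vivo* replicate 1, without which their adjusted p was 0.183 and 0.0929, and the first was also lost without 2D replicate 2 (adjusted p = 0.158) or without normalization.

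The ATG2 paralogues diverged over organoid culture. *Atg2b* was at 23.8 and 23.8 CPM *in vivo*, 14.2 and 15.8 in 2D, 13.4 and 15.9 at D3 and 7.44 and 6.53 at D7. *Atg2a* was at 10.4 and 11.3 CPM *in vivo*, 10 and 15.0 in 2D, 9.13 and 10.5 at D3 and 19.2 and 19.6 at D7. The D7 libraries were thus the lowest of all for *Atg2b* and the highest of all for *Atg2a*. *Atg2b* was 3.39-fold lower at D7 than *in vivo* (log2 fold change of *in vivo* over D7 1.76 ± 0.28 SE, edgeR adjusted p = 0.000113) and 2.13-fold lower than in 2D (-1.09 ± 0.29, edgeR adjusted p = 0.00521). From D3 to D7 it fell 2.09-fold (edgeR adjusted p = 0.0139). This call was lost without D3 replicate 2 (adjusted p = 0.0687), D7 replicate 1 (adjusted p = 0.0526) or D7 replicate 2 (adjusted p = 0.121). *Atg2a* was higher at D7 than at D3, by 1.97-fold (edgeR adjusted p = 0.0279), and than *in vivo*, by 1.78-fold (edgeR adjusted p = 0.0382). Each call was lost without any 1 of the 4 libraries compared. As a ratio of CPM within a library, *Atg2a* over *Atg2b* was 0.438 and 0.473 *in vivo*, 0.705 and 0.953 in 2D, 0.684 and 0.658 at D3 and 2.58 and 3 at D7.

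*Atg9b* (chr5:24589179-24597141, minus strand, GRCm39), the tissue-restricted ATG9 paralogue, was at 23.5 and 27.1 CPM in 2D culture, at 0 and 0.141 CPM *in vivo*, at 0.507 and 1.54 at D3 and at 0 in both D7 libraries. In counts, 2D culture held 129 and 146, *in vivo* TECs 0 and 1, D3 organoids 3 and 11, and D7 organoids none. The 2D group was 324-fold above the *in vivo* group, with a 95% exact binomial interval of 57.7 to 12850 that covers counting error only, and at least 110.5-fold above D7, taking 3 counts over the group as the floor. It was 23.6-fold above D3 organoids (log2 fold change of D3 over 2D -4.56 ± 0.57, edgeR adjusted p = 9.84e-06), and edgeR adjusted p was 6.46e-07 for *in vivo* over 2D and 4.74e-07 for D7 over 2D. The few counts at D3 were also called above *in vivo* (edgeR adjusted p = 0.0271) and above D7 (edgeR adjusted p = 0.0115). Both calls were lost without D3 replicate 2 (adjusted p = 0.225 and 0.0929), without some of the other libraries, with limma-voom and in a fit of the 2 groups alone. Exons of *Nos3* on the other strand cover 59.4% of the *Atg9b* 3′ end, and *Nos3* was at 0.364 and 2.60 CPM in the 2D libraries. The general paralogue *Atg9a* had 33 counts in all libraries together, from 0 to 2.97 CPM. Its 3′ end lies wholly in exons of *Gm29253* on the same strand, which had 0 counts, and its level could not be measured here.

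**Figure D3:**
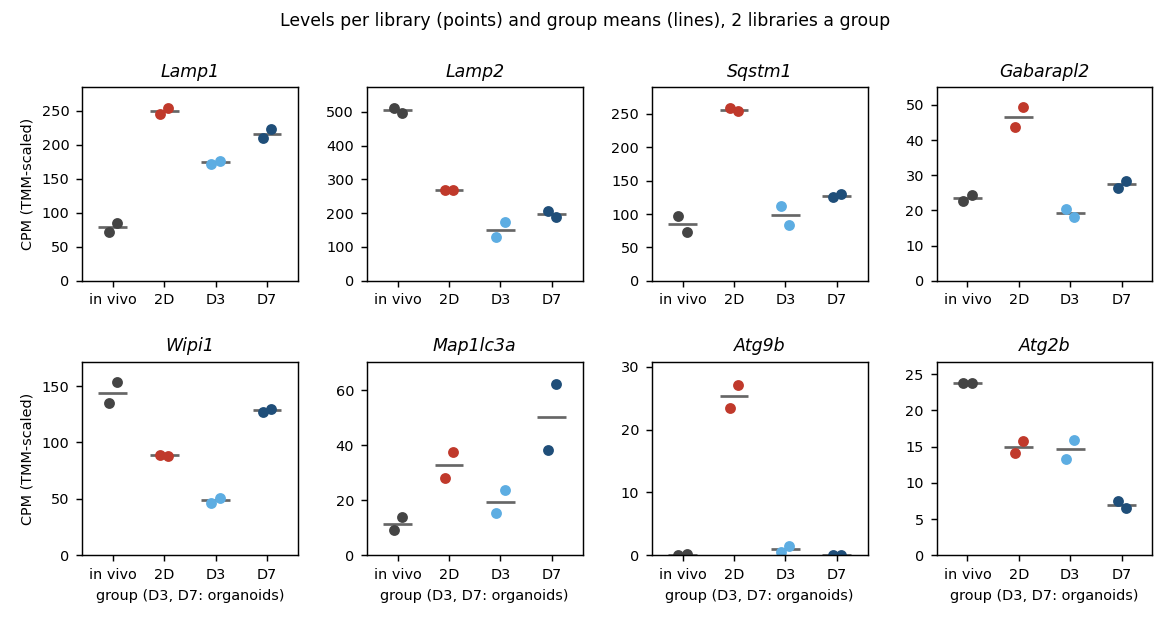
Level of 8 autophagy genes in each library, in TMM-scaled CPM on axes that start at 0, with 1 point per library and a line at the mean of the 2 libraries of each group. *Sqstm1*, *Gabarapl2* and *Atg9b* stand highest in 2D culture, *Lamp1* is lowest and *Lamp2* highest *in vivo*, and *Wipi1* and *Atg2b* move in opposite directions between D3 and D7.

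The conjugation machinery, in which ATG7 activates, ATG10 and ATG3 transfer, and the ATG12, ATG5 and ATG16L1 proteins form the complex that places ATG8 on membranes, was called in few pairs. The 3 genes of that final complex were called in no pair, with *Atg12* at 50.1 to 65.4 CPM, *Atg5* at 38.3 to 57.3 and *Atg16l1* at 14.3 to 24.1. *Atg10* was at 20.2 and 20.5 CPM *in vivo*, 10 and 10.4 in 2D, 17.1 and 16.9 at D3 and 14.1 and 11.3 at D7. Its 2D libraries were the lowest of all. *Atg10* was 1.99-fold higher *in vivo* than in 2D (log2 fold change 0.99 ± 0.28 SE, edgeR adjusted p = 0.00782) and 1.67-fold higher at D3 than in 2D (edgeR adjusted p = 0.0446), the second of which was lost without any 1 of the 2D or organoid libraries. *Rps23*, an abundant ribosomal protein gene on the other strand whose exons cover 1.4% of the *Atg10* 3′ end, was at 64.1 to 453 CPM.

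*Atg3* was at 50.8 and 33.3 CPM *in vivo*, 42.6 and 30.1 in 2D, 48.3 and 43.1 at D3 and 29.4 and 18.2 at D7. It was lower at D7 than at D3, by 1.90-fold (edgeR adjusted p = 0.0206), and than *in vivo*, by 1.74-fold (edgeR adjusted p = 0.0274). Both calls were lost without D7 replicate 2 (adjusted p = 0.23 and 0.26), the first also without D3 replicate 1 (adjusted p = 0.119) and the second without *in vivo* replicate 1 (adjusted p = 0.274). *Atg7* was at 9.92 and 15.7 CPM *in vivo* and 21.1 and 23.5 at D7, and its 1.73-fold difference (edgeR adjusted p = 0.0493) was lost without *in vivo* replicate 1 (adjusted p = 0.281) or any 1 of the organoid libraries. Among the ATG4 proteases, which trim ATG8 proteins before and after conjugation, *Atg4d* was at 4.53 and 9.73 CPM *in vivo*, 6.55 and 7.80 in 2D, 4.90 and 6.29 at D3 and 17.9 and 15.2 at D7. The D7 libraries were above all others. *Atg4d* was 2.95-fold higher at D7 than at D3 (1.56 ± 0.40, edgeR adjusted p = 0.0099), 2.31-fold higher than in 2D (edgeR adjusted p = 0.0188) and 2.30-fold higher than *in vivo* (edgeR adjusted p = 0.0232). All 3 calls were lost without D7 replicate 1, at adjusted p of 0.0774 to 0.148, and each also without other libraries. *Atg4b*, the most active of these proteases toward LC3, was at 23.0 and 24.3 CPM at D3 and 37.0 and 36.8 at D7, a 1.56-fold rise (edgeR adjusted p = 0.0391) that was lost without any 1 of these libraries and under 5 other alternatives. *Atg4a*, at 4.35 to 9.92 CPM, and *Atg4c*, at 8.19 to 14.4 CPM, were called in no pair. The 3′ end of *Atg4a* shares 37.5% of its 50-base words with the pseudogene *Atg4a-ps*.

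The ATG8 proteins coat the autophagosome and bind cargo receptors. They fall into the LC3 subfamily (*Map1lc3a*, *Map1lc3b*), tied to membrane growth, and the GABARAP subfamily (*Gabarap*, *Gabarapl1*, *Gabarapl2*), tied to later fusion with lysosomes. *In vivo* over 2D, 4 of the 5 genes were lower and none higher, beside 19.9% of all genes lower, with a median log2 fold change of -0.704 beside 0.0572 over all genes. D3 over 2D gave 3 lower and none higher, beside 19.1% of all genes lower, with a median of -0.744 beside 0.0251. From D3 to D7 3 rose and none fell, beside 10.9% of all genes that rose, with a median of 0.534 beside 0.0588. With 1 library left out, the counts ranged from 2 to 4, 1 to 4 and 0 to 3, respectively, and without normalization beyond library size they were 2, 1 and 3.

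*Gabarapl2* was at 22.6 and 24.4 CPM *in vivo*, 43.6 and 49.4 in 2D culture, 20.4 and 18.2 at D3 and 26.4 and 28.5 at D7. Its 2D libraries stood above all others. *Gabarapl2* was 1.98-fold lower *in vivo* (log2 fold change -0.98 ± 0.21 SE, edgeR adjusted p = 0.00123), 2.41-fold lower at D3 (-1.27 ± 0.21, edgeR adjusted p = 0.000154) and 1.70-fold lower at D7 (-0.76 ± 0.21, edgeR adjusted p = 0.00699) than in 2D, the last of which was lost without 2D replicate 2 (adjusted p = 0.0578) or D7 replicate 1 (adjusted p = 0.0636). *Map1lc3a* was at 9.05 and 13.96 CPM *in vivo*, 28 and 37.7 in 2D, 15.4 and 23.6 at D3 and 38.2 and 62.5 at D7. The *in vivo* libraries were the lowest and the D7 libraries the highest. *Map1lc3a* was 4.31-fold lower *in vivo* than at D7 (-2.11 ± 0.31, edgeR adjusted p = 4.38e-05) and 2.83-fold lower than in 2D (-1.50 ± 0.31, edgeR adjusted p = 0.000821). From D3 to D7 it rose 2.55-fold (1.35 ± 0.29, edgeR adjusted p = 0.00351). This was lost without D3 replicate 1 (adjusted p = 0.0642) or D7 replicate 2 (adjusted p = 0.0825).

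*Gabarapl1* was at 25.9 and 23.4 CPM *in vivo*, 37.8 and 42.5 in 2D, 14.2 and 28.8 at D3 and 37.2 and 43.7 at D7. The cultures at 2D and D7 overlapped, and so did *in vivo* TECs and D3 organoids. It was 1.85-fold lower at D3 than in 2D (edgeR adjusted p = 0.0151) and rose 1.86-fold from D3 to D7 (edgeR adjusted p = 0.0255). Both calls were lost without D3 replicate 1, the lowest library (adjusted p = 0.172 and 0.238), the first also without 2D replicate 2 (adjusted p = 0.0943) and the second without D7 replicate 2 (adjusted p = 0.162). Its lower levels *in vivo* than in 2D (1.63-fold, edgeR adjusted p = 0.0447) and at D7 (1.64-fold, edgeR adjusted p = 0.0487) were lost without any 1 of the libraries compared. *Gabarap* was at 49.8 and 65.4 CPM *in vivo*, 92.6 and 82.4 in 2D, 52.6 and 68.1 at D3 and 86.7 and 73.2 at D7. It was 1.52-fold lower *in vivo* (edgeR adjusted p = 0.0203) and 1.45-fold lower at D3 (edgeR adjusted p = 0.0389) than in 2D, and both calls were lost without 2D replicate 1 (adjusted p = 0.129 and 0.192), without *in vivo* replicate 1 (adjusted p = 0.166) or D3 replicate 1 (adjusted p = 0.253), respectively, or without normalization, and the second also without 2D replicate 2 (adjusted p = 0.0732). *Map1lc3b*, the usual marker of autophagosomes, was at 110 and 102 CPM *in vivo*, 118 and 111 in 2D, 94.1 and 78.4 at D3 and 121 and 129 at D7. Its only call was a 1.45-fold rise from D3 to D7 (edgeR adjusted p = 0.0265), lost without D3 replicate 2 (adjusted p = 0.251) or either D7 library. Of its 3′ end, 43.7% of 50-base words are shared with 5 pseudogenes that had 3 counts in all.

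Cargo receptors bind ubiquitin on proteins, aggregates or organelles and link them to ATG8. *Sqstm1* (chr11:50089572-50107684, minus strand, GRCm39), which encodes p62 and is itself degraded by autophagy as a protein, was at 96.6 and 72.4 CPM *in vivo*, 259 and 254 in 2D culture, 113 and 84.2 at D3 and 125 and 130 at D7. The 2D libraries were well above all others, and *in vivo* and D3 libraries overlapped. *Sqstm1* was 3.04-fold lower *in vivo* (log2 fold change -1.60 ± 0.18 SE, edgeR adjusted p = 1.66e-06), 2.61-fold lower at D3 (-1.38 ± 0.18, edgeR adjusted p = 1.03e-05) and 2.01-fold lower at D7 (-1.01 ± 0.18, edgeR adjusted p = 0.000207) than in 2D. It was also 1.51-fold lower *in vivo* than at D7 (edgeR adjusted p = 0.0163). This was lost without *in vivo* replicate 2 (adjusted p = 0.15) or D7 replicate 2 (adjusted p = 0.081). *Mrnip*, whose exons cover the *Sqstm1* 3′ end on the other strand, was at 0.928 to 11.7 CPM and was lowest in the 2D libraries.

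*Tax1bp1*, a receptor for protein aggregates and bacteria, was at 316 and 313 CPM *in vivo*, 449 and 439 in 2D, 346 and 302 at D3 and 380 and 395 at D7. Its 2D libraries were again the highest, by 1.41-fold over *in vivo* (-0.50 ± 0.14, edgeR adjusted p = 0.00897) and 1.37-fold over D3 (-0.46 ± 0.14, edgeR adjusted p = 0.0164). Both calls were lost without normalization beyond library size (adjusted p = 0.0807 and 0.283), and the second without D3 replicate 2 (adjusted p = 0.115), 2D replicate 1 (adjusted p = 0.0708) or 2D replicate 2 (adjusted p = 0.0534). *Nbr1*, which acts with p62, was at 53.1 and 52.8 CPM *in vivo*, 76.2 and 68.9 in 2D, 65.6 and 74.7 at D3 and 52.1 and 39.5 at D7. It was 1.58-fold lower at D7 than in 2D (edgeR adjusted p = 0.00907) and 1.52-fold lower than at D3 (edgeR adjusted p = 0.0291). Both calls were lost without D7 replicate 2 (adjusted p = 0.124 and 0.306), the first also without 2D replicate 1 (adjusted p = 0.0703) and the second without either D3 library. *Optn*, a receptor in mitophagy, the removal of mitochondria, was at 4.8 to 13.3 CPM and was called in no pair.

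At the lysosomal end of the pathway, *Lamp1* and *Lamp2* differed between *in vivo* TECs and every culture. *Lamp1* (chr8:13209121-13227360, plus strand, GRCm39) and *Lamp2* (chrX:37488520-37545340, minus strand, GRCm39) encode the main glycoproteins of the lysosomal membrane, and LAMP2 is also needed for fusion with autophagosomes and, as 1 isoform, for chaperone-mediated autophagy. *Lamp1* was at 71.9 and 85.2 CPM *in vivo*, 245 and 254 in 2D culture, 172 and 176 at D3 and 209 and 223 at D7. *Lamp2* was at 511 and 497 CPM *in vivo*, 270 and 270 in 2D, 129 and 174 at D3 and 207 and 188 at D7. The *in vivo* libraries were thus the lowest of all for *Lamp1* and the highest of all for *Lamp2*, with no overlap with any culture.

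*Lamp1* was 3.17-fold lower *in vivo* than in 2D (log2 fold change -1.67 ± 0.16 SE, edgeR adjusted p = 1.39e-07), 2.75-fold lower than at D7 (-1.46 ± 0.15, edgeR adjusted p = 1.37e-06) and 2.21-fold lower than at D3 (-1.15 ± 0.15, edgeR adjusted p = 1.96e-05). *Lamp2* was 1.87-fold higher *in vivo* than in 2D (0.90 ± 0.16, edgeR adjusted p = 0.000204), 2.55-fold higher than at D7 (1.35 ± 0.16, edgeR adjusted p = 5.16e-06) and 3.33-fold higher than at D3 (1.74 ± 0.16, edgeR adjusted p = 2.98e-07). All 6 calls held under every alternative tried. The ratio of *Lamp1* to *Lamp2* CPM within a library was 0.141 and 0.171 *in vivo* and 0.908 to 1.33 in the 6 cultured libraries. Between cultures, *Lamp2* was 1.78-fold lower at D3 than in 2D (-0.83 ± 0.16, edgeR adjusted p = 0.000531) and 1.37-fold lower at D7 (edgeR adjusted p = 0.0295), the latter lost without any 1 of the 4 libraries compared. *Lamp1* was 1.43-fold lower at D3 than in 2D (edgeR adjusted p = 0.011), which was lost without 2D replicate 2 (adjusted p = 0.0607) or without normalization. Thymocyte marker sums were 882 and 402 CPM in the *in vivo* libraries and at most 11.3 CPM in the cultures, and their part in these differences was not tested. *Grtp1*, whose exons cover the *Lamp1* 3′ end on the other strand, was at 0.870 to 16.7 CPM.

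TFEB is the transcription factor that drives many lysosomal and autophagy genes through sites with the E-box core CACGTG. *Tfeb* (chr17:48047837-48103348, plus strand, GRCm39) was at 1.22 and 1.27 CPM *in vivo*, 2.55 and 2.41 in 2D, 4.73 and 6.01 at D3 and 6.82 and 6.13 at D7, from 7 to 55 counts per library. Every organoid library was above every other library, but *Tfeb* was not called for D3 or D7 over 2D. *Tfeb* was 5.14-fold lower *in vivo* than at D7 (-2.36 ± 0.60, edgeR adjusted p = 0.00577) and 4.27-fold lower than at D3 (-2.09 ± 0.60, edgeR adjusted p = 0.015). The first call was lost without D7 replicate 1 (adjusted p = 0.0544), and the second without D3 replicate 2 (adjusted p = 0.0596) or in a fit of those 2 groups alone (adjusted p = 0.0537). *Clec16a*, which encodes a regulator of mitophagy studied in TECs for its link to autoimmune diabetes, was at 3.71 to 10.3 CPM and was called in no pair.

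*Lamp1* and *Lamp2* moved in opposite directions and *Sqstm1* and *Wipi1* differed between groups in calls that held under every alternative tried, so their promoters are shown, from 250 bases before to 50 bases after the RefSeq gene start, 5′ to 3′ on the strand of the gene. The sequences are from RefSeq's promoters of GRCm38.p6, and each matched GRCm39 exactly once, at chr8:13208911-13209210 (plus strand) for *Lamp1*, chrX:37545288-37545587 (minus) for *Lamp2*, chr11:50101598-50101897 (minus) for *Sqstm1* and chr11:109502166-109502465 (minus) for *Wipi1*. For *Sqstm1* and *Wipi1* the window lies inside the gene coordinates given above, so the RefSeq start differs from the start in those coordinates. The RefSeq starts of *Lamp1* and *Lamp2* also differ from those coordinates, whose starts lie within the windows shown. Windows at those other starts were not searched. Capitals mark CACGTG, which reads the same on both strands.
Lamp1: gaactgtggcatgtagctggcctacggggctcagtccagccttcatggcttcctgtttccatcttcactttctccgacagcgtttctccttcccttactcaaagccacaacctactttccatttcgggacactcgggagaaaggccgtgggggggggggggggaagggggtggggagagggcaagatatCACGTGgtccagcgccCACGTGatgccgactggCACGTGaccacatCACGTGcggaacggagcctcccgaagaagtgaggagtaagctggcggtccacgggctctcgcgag
Lamp2: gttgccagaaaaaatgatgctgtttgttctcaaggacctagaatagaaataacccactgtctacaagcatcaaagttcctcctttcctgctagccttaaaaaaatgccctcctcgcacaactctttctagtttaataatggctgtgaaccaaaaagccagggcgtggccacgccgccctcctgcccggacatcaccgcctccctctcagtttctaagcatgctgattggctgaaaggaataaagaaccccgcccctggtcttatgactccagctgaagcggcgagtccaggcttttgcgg
Sqstm1: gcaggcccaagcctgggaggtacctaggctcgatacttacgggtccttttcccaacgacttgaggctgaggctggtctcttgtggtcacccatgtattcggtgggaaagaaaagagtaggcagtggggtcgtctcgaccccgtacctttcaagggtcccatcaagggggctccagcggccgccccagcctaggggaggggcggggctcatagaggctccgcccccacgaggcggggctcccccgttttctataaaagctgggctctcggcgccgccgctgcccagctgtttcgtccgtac
Wipi1: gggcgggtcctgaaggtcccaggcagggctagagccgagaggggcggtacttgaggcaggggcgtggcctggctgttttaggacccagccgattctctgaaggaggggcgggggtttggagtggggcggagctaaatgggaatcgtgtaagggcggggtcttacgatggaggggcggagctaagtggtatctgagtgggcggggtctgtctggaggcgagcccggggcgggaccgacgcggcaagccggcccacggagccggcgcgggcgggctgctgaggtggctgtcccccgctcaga
The *Lamp1* window held 4 copies of CACGTG, which start at -61, -45, -28 and -15 relative to the RefSeq gene start. Some of these copies lie past the other *Lamp1* start, at 13209121. The windows of *Lamp2*, *Sqstm1* and *Wipi1* held none. Of all 32851 mouse promoters of this length, 7.15% held at least 1 copy and 8 held 4 or more. Promoters were found for 33 members, with *Map1lc3a*, *Becn1*, *Rb1cc1*, *Atg12*, *Atg16l1* and *Pik3c3* not matched. Of the 39 promoters of those 33 members, 5 held CACGTG, 12.82%, those of *Lamp1*, *Atg3*, *Atg5*, *Atg7* and *Atg14*. TGACNNNGC, the core of the site bound by the stress factor NRF2, was searched on both strands, and was in 12.39% of all promoters and in 5 of the members', those of *Atg13*, *Clec16a*, *Map1lc3b*, *Tax1bp1* and *Ulk2*. These matches describe letters in a window and are not evidence of binding.

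**Figure D4:**
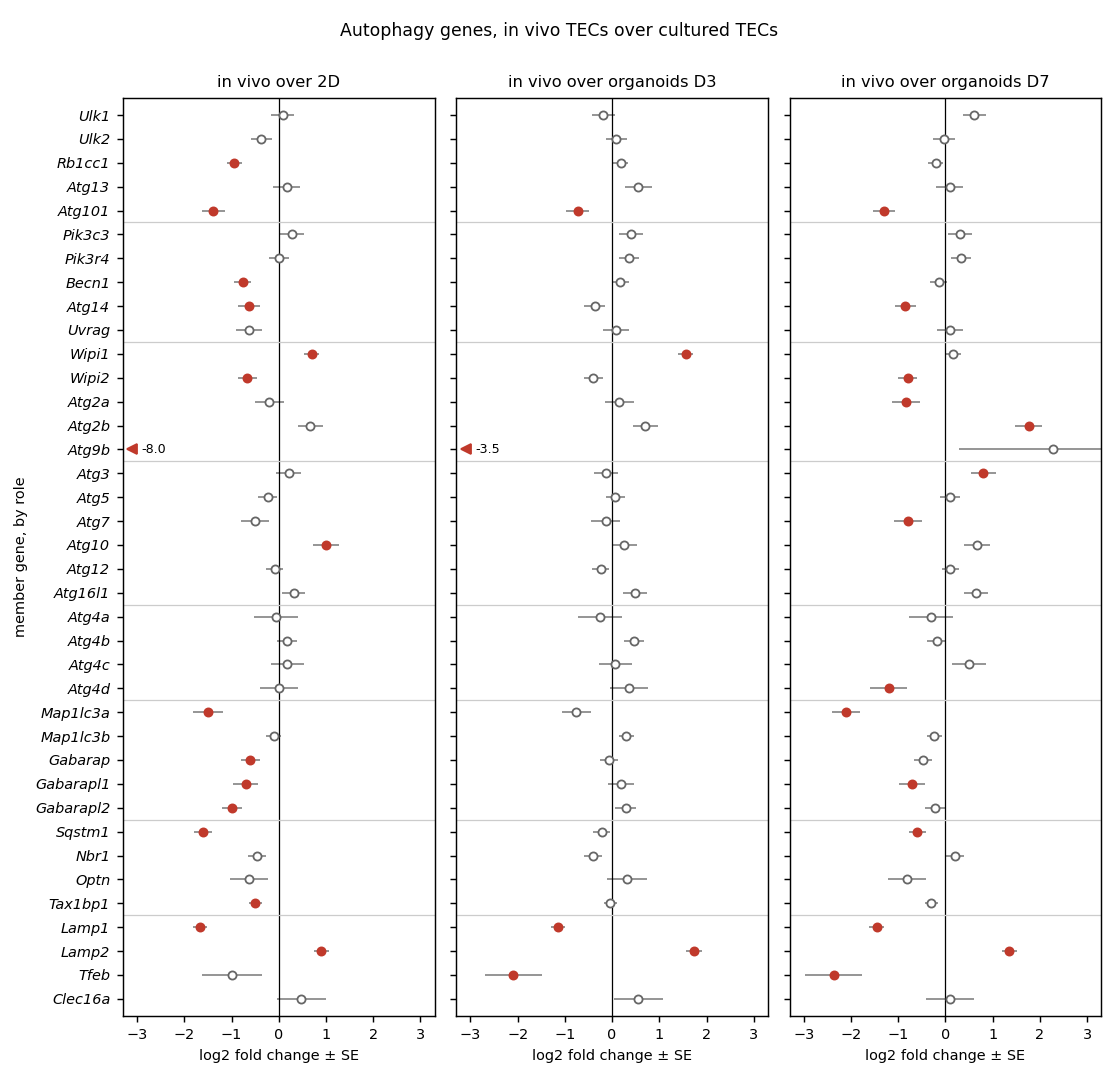
Log2 fold change ± SE from edgeR for each tested autophagy gene, *in vivo* over 2D (left), over D3 organoids (middle) and over D7 organoids (right), with filled red points for an adjusted p of at most 0.05. Triangles at the edge mark *Atg9b* beyond the axis. *Lamp1* lies left of 0 and *Lamp2* right of 0 in all 3 panels.

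**Figure D5:**
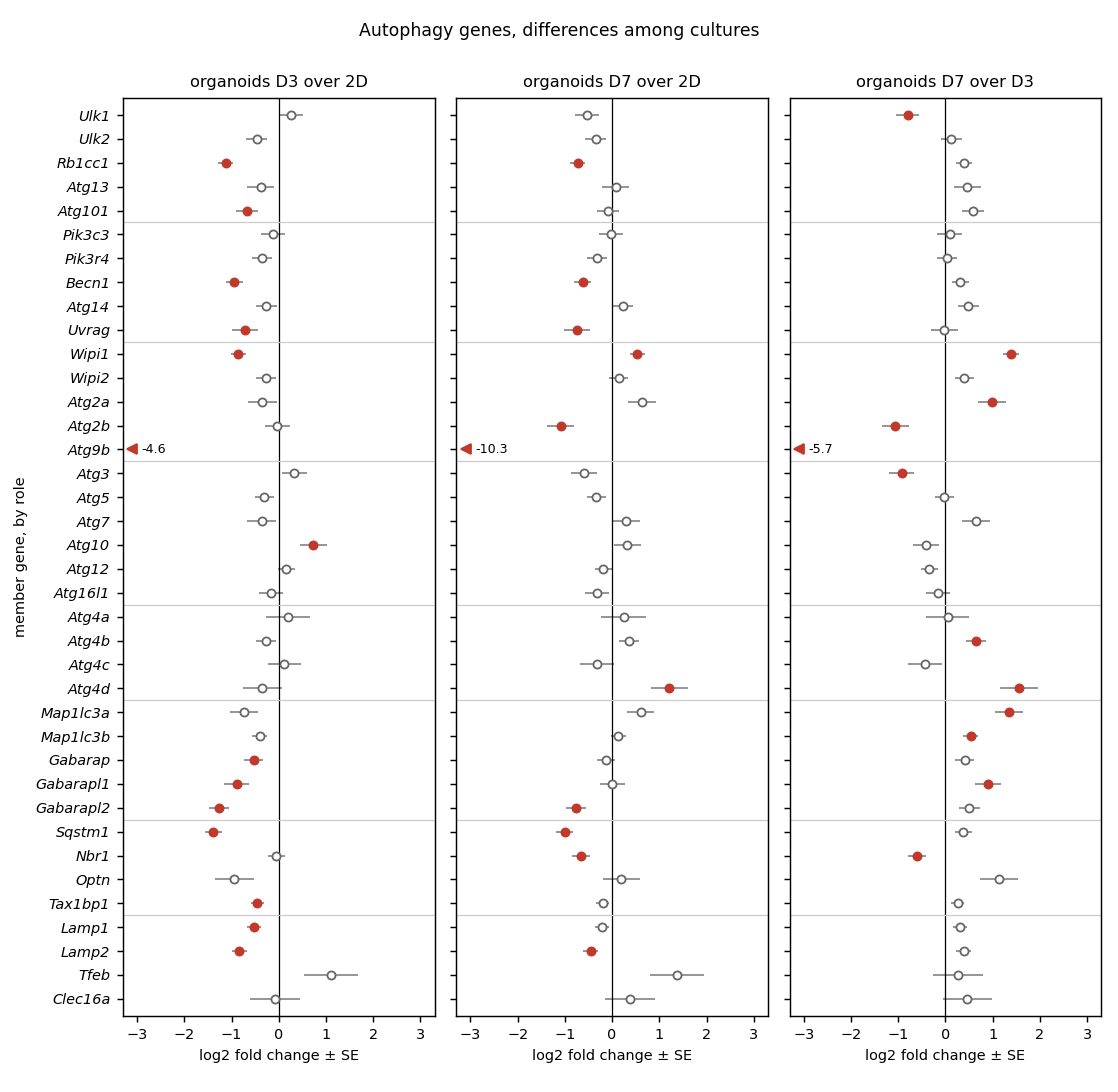
Log2 fold change ± SE from edgeR for each tested autophagy gene among the cultures, D3 over 2D (left), D7 over 2D (middle) and D7 over D3 (right), with filled red points for an adjusted p of at most 0.05 and triangles for *Atg9b* beyond the axis. *Wipi1* lies left of 0 at -0.86 for D3 over 2D and right of 0 at 0.53 for D7 over 2D.

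Genes that act with the 39 members were read from 5 further lists. The lysosomal proton pump, or V-ATPase, which acidifies the lysosome, was mostly lower *in vivo* than in 2D. Of its 14 tested genes, 10 were lower and 0 higher *in vivo*, beside 19.9% and 21.7% of all genes, with a median log2 fold change of -0.595 beside 0.0572 over all genes. The count of lower genes ranged from 7 to 11 with 1 library left out and was 7 without normalization. *Atp6v0e* was at 63.2 and 56.6 CPM *in vivo*, 230 and 211 in 2D, 55.1 and 81.4 at D3 and 101 and 99.3 at D7, highest in both 2D libraries. Its log2 fold change was -1.88 ± 0.19 *in vivo* over 2D (edgeR adjusted p = 3.3e-07) and -1.69 ± 0.19 at D3 over 2D (edgeR adjusted p = 1.41e-06). *Atp6v1e1* was at 121 and 102 CPM *in vivo*, 301 and 303 in 2D, 110 and 96.5 at D3 and 161 and 162 at D7, with log2 fold changes of -1.44 ± 0.16 *in vivo* over 2D (edgeR adjusted p = 8.72e-07) and -1.55 ± 0.16 at D3 over 2D (edgeR adjusted p = 4.91e-07). D3 over 2D gave 8 lower and 0 higher, beside 19.1% and 19.3% of all genes, and D7 over 2D 6 lower and 1 higher, beside 21.1% and 24.4%. *In vivo* over D7 gave 8 lower and 1 higher, beside 18% and 16.8%, and *in vivo* over D3 1 and 1, beside 14.1% and 14%. D7 over D3 gave 7 higher and 2 lower, beside 10.9% and 9.91%, and with 1 library left out 2 to 7 higher and 0 to 3 lower.

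Lysosomal hydrolases and membrane proteins went both ways. Of 26 genes, 8 were lower and 5 higher *in vivo* than in 2D, which is 30.77% and 19.23%, beside 19.9% and 21.7% of all genes. Against D7, 10 were lower and 4 higher, 38.46% and 15.38%, beside 18% and 16.8%. Against D3, 11 were lower and 4 higher, 42.31% and 15.38%, beside 14.1% and 14%, with a median log2 fold change of -0.578 beside 0.0098 over all genes and 7 to 11 lower with 1 library left out. *Cd63*, a tetraspanin of late endosomes and lysosomes, was at 72.1 and 61.9 CPM *in vivo*, 339 and 308 in 2D, 140 and 154 at D3 and 104 and 90.8 at D7, with a log2 fold change of -2.27 ± 0.16 *in vivo* over 2D (edgeR adjusted p = 6.36e-09). *Psap*, the precursor of the saposins that assist lipid breakdown, was at 42.1 and 45.4 CPM *in vivo*, 21.5 and 21.0 in 2D, 122 and 91.01 at D3 and 49.1 and 29.3 at D7, highest at D3 by 2.33 ± 0.24 over 2D (edgeR adjusted p = 7.65e-07). For D7 over 2D the list gave 6 higher and 4 lower, beside 24.4% and 21.1% of all genes, and for D7 over D3 2 higher and 4 lower, beside 10.9% and 9.91%. For D3 over 2D it gave 4 higher and 6 lower, beside 19.3% and 19.1%, and 7 higher and 4 lower without normalization.

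Other autophagy machinery was read from 25 genes that include those for membrane contact, tethering and fusion. *In vivo* over 2D 9 were lower and 1 higher, 36% and 4%, beside 19.9% and 21.7% of all genes, with a median log2 fold change of -0.362 beside 0.0572. D3 over 2D likewise gave 9 and 1, beside 19.1% and 19.3%, with a median of -0.415 beside 0.0251. Without normalization 4 were lower in each, and with 1 library left out 5 to 9 and 6 to 9. *Vmp1*, a scramblase at the site where autophagosomes form, was at 84.6 and 54.0 CPM *in vivo*, 235 and 257 in 2D, 68.9 and 83.7 at D3 and 53.8 and 54.4 at D7. The 2D libraries were far above all others, with log2 fold changes over 2D of -1.83 ± 0.20 *in vivo* (edgeR adjusted p = 9.35e-07), -1.69 ± 0.20 at D3 (edgeR adjusted p = 2.92e-06) and -2.19 ± 0.20 at D7 (edgeR adjusted p = 1.5e-07). D7 over 2D gave 6 lower, 24% and near the 21.1% of all genes, and 2 higher, 8% beside 24.4%. *In vivo* over D7 gave 4 lower and 1 higher, beside 18% and 16.8%, and *in vivo* over D3 2 lower and 4 higher, beside 14.1% and 14%. D7 over D3 gave 4 higher and 0 lower, beside 10.9% and 9.91%, and 0 of either without normalization.

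Other selective autophagy receptors, 17 genes, included 2 related receptors of mitophagy with separate patterns. *Bnip3l*, which removes mitochondria during maturation of red blood cells, was at 258 and 245 CPM *in vivo*, 93.8 and 105 in 2D, 42.8 and 46.8 at D3 and 114 and 104 at D7. It was highest *in vivo* and lowest at D3, by 2.49 ± 0.16 on the log2 scale (edgeR adjusted p = 3.93e-09), and rose from D3 to D7 by 1.29 ± 0.16 (edgeR adjusted p = 4.44e-05). *Bnip3*, induced by hypoxia, was at 56.7 and 48.4 CPM *in vivo*, 82.4 and 118 in 2D, 15.0 and 20.3 at D3 and 19.9 and 20.4 at D7, with log2 fold changes over 2D of -2.50 ± 0.23 at D3 (edgeR adjusted p = 1.73e-07) and -2.32 ± 0.23 at D7 (edgeR adjusted p = 3.24e-07). Over the list, *in vivo* was higher than 2D in 3 genes and lower in 4, 17.65% and 23.53%, near the 21.7% and 19.9% of all genes. It was higher than D7 in 6 and lower in 2, 35.29% and 11.76%, beside 16.8% and 18%, and higher than D3 in 6 and lower in 2, beside 14% and 14.1%. D7 over 2D gave 1 higher and 5 lower, beside 24.4% and 21.1%, and D3 over 2D 2 higher and 6 lower, beside 19.3% and 19.1%. D7 over D3 gave 3 higher and 2 lower, beside 10.9% and 9.91%.

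Nutrient sensing and transcriptional control, 31 genes around the kinases mTOR and AMPK, had medians near 0 in the *in vivo* comparisons, at -0.078 over 2D, 0.094 over D7 and 0.02 over D3. *In vivo*, 9 were higher and 4 lower than in 2D, 29.03% and 12.9%, beside 21.7% and 19.9% of all genes. Against D7 these were 8 and 4, 25.81% and 12.9%, beside 16.8% and 18%, and against D3 7 and 4, 22.58% and 12.9%, beside 14% and 14.1%. With 1 library left out, the higher genes were 5 to 9, 5 to 10 and 4 to 7, respectively. *Sesn1*, a leucine sensor that restrains mTOR complex 1, was at 42.8 and 32.7 CPM *in vivo*, 8.18 and 1.86 in 2D, 32.5 and 41.8 at D3 and 42.7 and 42.7 at D7, lowest in both 2D libraries, by 2.90 ± 0.39 on the log2 scale *in vivo* (edgeR adjusted p = 1.02e-05) and 3.08 ± 0.38 at D7 (edgeR adjusted p = 5.43e-06). *Ddit4*, a stress-induced inhibitor of the same complex, was at 328 and 417 CPM *in vivo*, 622 and 590 in 2D, 203 and 200 at D3 and 170 and 140 at D7, highest in 2D, with a log2 fold change of -1.96 ± 0.16 at D7 over 2D (edgeR adjusted p = 3.85e-08). *Mitf*, a relative of *Tfeb*, was at 19.3 and 14.1 CPM *in vivo*, 2.18 and 2.60 in 2D, 0.338 and 1.68 at D3 and 3.22 and 2.17 at D7, highest *in vivo* by 2.79 ± 0.56 over 2D (edgeR adjusted p = 0.000623) and 2.59 ± 0.54 over D7 (edgeR adjusted p = 0.00124). D7 over 2D gave 10 higher and 7 lower, beside 24.4% and 21.1% of all genes, D3 over 2D 8 and 7, beside 19.3% and 19.1%, and D7 over D3 3 and 6, beside 10.9% and 9.91%.

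Across the 6 comparisons, 73 calls were made on 27 of the members, and 11 tested members had none. With 2 libraries a group, a permutation test of any single value cannot give a two-sided exact p below 0.333. The edgeR p-values instead compare group means with the spread between libraries, and rest on the spread that edgeR shared over genes and groups. Of the 73 calls, 31 were kept without each library in turn and under each of the 9 alternatives in which their gene was tested. Among them were all those of *Rb1cc1* and of *Sqstm1* against 2D culture, of *Lamp1* and *Lamp2* *in vivo*, and 4 of the 5 of *Wipi1*. With a mean of at least 10 CPM, 59 calls were kept and 4 lost. The others, of *Atg9b*, *Atg4d* and *Tfeb*, fell below that filter and were not tested there.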

How the data were processed

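RNA of 8 libraries, 2 for each of 4 groups, was made into QuantSeq 3′ libraries, and the authors aligned reads to GRCm39 with STAR. The deposited files hold raw counts per Ensembl gene, 1 file per library, with no normalization. The submitters' processing notes name R 4.1.2, edgeR and limma. A table of the study's own comparisons was not used. Gene names were matched for 56236 of 56923 identifiers.

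The 38 members with at least 1 CPM in at least 3 libraries were tested within a fit of all 14504 such genes, with edgeR 4.0.16 (R 4.3.3) quasi-likelihood tests, TMM scaling, 1 mean per group and Benjamini-Hochberg adjustment over all genes, at 0.05. CPM are TMM-scaled, and SE is the absolute log2 fold change divided by the square root of F. The procedure was also run on counts simulated from its own fitted spread, which cannot show how well the model suits the real data. Alternatives used DESeq2 1.42.0, limma-voom (limma 3.58.1), other scalings and filters, the 2 groups alone, ribosomal RNA genes left out, a replicate block and each library left out in turn.

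The 39 members and all gene lists were chosen with earlier results of these data known. All members could be named. From each further list, at most 2 genes higher and 2 lower per comparison could be named, taken by fold change among called genes whose higher group reached 10 CPM in each library. Promoters came from RefSeq. Counting intervals and floors cover counting error only. Figures were drawn with matplotlib 3.10.9.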

Additional observations from a re-analysis of the deposited data

Results flagged for a closer look

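*Wipi1*, which encodes a protein that binds the lipid of the growing autophagosome membrane, was on opposite sides of 2D culture at the 2 organoid ages. Both D3 libraries, at 46.6 and 51.2 CPM, lay below both 2D libraries, at 89.1 and 88.2 CPM, and both D7 libraries, at 127 and 130 CPM, lay above them. The difference between the organoid ages was 1.39 on the log2 scale (SE 0.16, edgeR adjusted p = 2.11e-05), and it held under every alternative tried. The rise of D7 over 2D alone, 0.53 on the log2 scale, was lost without D7 replicate 2 or either 2D library.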

How the results depend on the processing

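No call on a member reversed under any alternative. Of 73 calls, 47 were kept under the 9 alternatives that use all libraries or both groups, and 31 when each library was also left out. Calls of genes below a mean of 10 CPM were not tested with that filter, and the other alternatives alone decided whether they were kept. Without normalization beyond library size, which moved the median of all genes, 17 calls were lost. Members lower *in vivo* than in 2D went from 13 to 8, beside 2883 to 2221 of all genes. Members lower at D3 than in 2D went from 13 to 7, beside 2764 to 1886 of all genes. D7 over 2D went from 2 higher and 9 lower to 6 higher and 5 lower. Of all genes, that pair went from 3546 higher and 3059 lower to 4340 higher and 2315 lower. Members lower *in vivo* than at D3 went from 4 to 2 with the DESeq2 Wald test and to 1 in a fit of those 2 groups alone. With a mean of at least 10 CPM they were also 2, as *Atg9b* and *Tfeb* fell below that filter and were not tested. The 1 member higher at D3 than in 2D was not called by the DESeq2 Wald test, limma-voom or without a filter (0 in each). Those higher at D7 than in 2D went from 2 to 1 with a mean of at least 10 CPM, where *Atg4d* was not tested. Those higher at D7 than at D3 went from 7 to 4 without a filter.

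Leaving out 1 library gave, for *in vivo* over 2D, 3 to 3 higher and 10 to 14 lower, for *in vivo* over D7 2 to 4 higher and 5 to 10 lower (5 without D7 replicate 2), and for *in vivo* over D3 2 to 3 higher and 1 to 6 lower (1 without D3 replicate 2). For D7 over 2D it gave 0 to 3 higher and 5 to 9 lower (5 without D7 replicate 2), for D3 over 2D 0 to 1 higher and 7 to 15 lower (7 without 2D replicate 2), and for D7 over D3 2 to 8 higher and 0 to 5 lower (0 without D7 replicate 2). The test of any difference called 18 to 26.

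The replicate numbers of the labels were not shown to pair the libraries, since deviations of same-numbered libraries correlated at 0.0257 to 0.132. A fit with the replicate block kept all 73 calls and added others, so that the counts of higher and lower members were 3 and 15 for *in vivo* over 2D, 4 and 12 over D7, 2 and 5 over D3, 3 and 11 for D7 over 2D, 1 and 15 for D3 over 2D, and 8 and 5 for D7 over D3, with 26 for any difference. With 2 libraries a group, calls at low counts, such as those of *Tfeb* at 7 to 55 counts per library, are the least certain.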
